A study of Saccharomyces cerevisiae with 2 samples.

Results

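The genes of the mitochondrial tricarboxylic acid (TCA) cycle were followed in nascent transcription data of the budding yeast Saccharomyces cerevisiae. They were chosen by name, as the rows of the systematic names of CIT1, ACO1, IDH1, IDH2, KGD1, KGD2, LSC1, SDH1, FUM1 and MDH1. They are 10 of the 6448 reading frames in the count table, and all 10 passed the minimum of 100 counts over both libraries. A strain that lacks XRN1, obtained from the Euroscarf collection and labelled Xrn1 mutant, was set against the wild type BY4741, a haploid laboratory strain. Xrn1 digests decapped mRNA in the cytoplasm, starting at the 5′ end. The series asks how it influences transcription by RNA polymerase II. No drug or other treatment separated the strains. Both cultures were harvested at an OD600 of 0.55, and the growth medium is not stated in the labels used here. Each strain is represented by 1 library.

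The assay was BioGRO-seq, a genomic run-on. Permeabilised cells had their existing RNA trimmed by RNase A, and engaged polymerases then extended their transcripts for 5 min with biotin-labelled UTP. For both libraries the labels give 0.5% sarkosyl and a run-on temperature of 30 °C. The assay is thus designed to count polymerases at work on a gene and not its mRNA. The libraries held 46396400 counts for the deletion strain and 64934493 for the wild type. XRN1 itself had 53 counts in the deletion strain and 41954 in the wild type. LEU2, URA3 and MET17, which are deleted in BY4741, had at most 12 counts in either library. HIS3, of which BY4741 lacks only a part, had 2720 counts in the deletion strain and 2839 in the wild type. Ratios are given as deletion strain over wild type and relative to the median protein-coding gene, so a change shared by all genes cannot be seen. A single library of each strain was analysed here, so no spread between cultures can be set and no p-value is given. The intervals are 95% exact counting intervals and leave out variation between cultures.

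The TCA cycle oxidises acetyl units in the mitochondrial matrix and passes the electrons to the respiratory chain. It also supplies 2-oxoglutarate for glutamate and oxaloacetate for aspartate. In yeast many of its genes are repressed by abundant glucose and activated by the Hap2/3/4/5 complex when cells turn to respiration. When respiration is impaired, the genes of the first steps, which lead to 2-oxoglutarate, come under the control of the retrograde factors Rtg1 and Rtg3.

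Run-on ratios of the cycle genes went in both directions in the deletion strain. CIT1, at the entry, was higher, and the genes of the following steps, ACO1, IDH1 and IDH2, were lower. The 6 genes from KGD1 to MDH1 were higher, and all 10 differed by less than 2-fold. The 3 lower genes also had the highest levels of the 10, and highly transcribed genes had lower ratios in general, as described below. The largest differences were those of IDH1, 1.74-fold lower (1.72 to 1.77), and CIT1, 1.62-fold higher (1.59 to 1.66). At the 2-fold rule (at least 2 times higher or lower, and a counting interval off 1), 0 of the 10 genes were called higher and 0 lower, against 4.06% and 1.52% of the 5198 protein-coding genes tested. At a 1.5-fold rule CIT1 was called higher and IDH1 lower, 1 gene in each direction, against backgrounds of 10.3% higher and 5.35% lower. A counting interval above 1 was found for 7 of the 10 cycle genes, against 43.0% of all genes, and one below 1 for 3 of the 10, against 42.4%. An interval off 1 was thus common at this depth, and whether the shares of the cycle genes differ from the background was not tested.

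**Figure D1:**
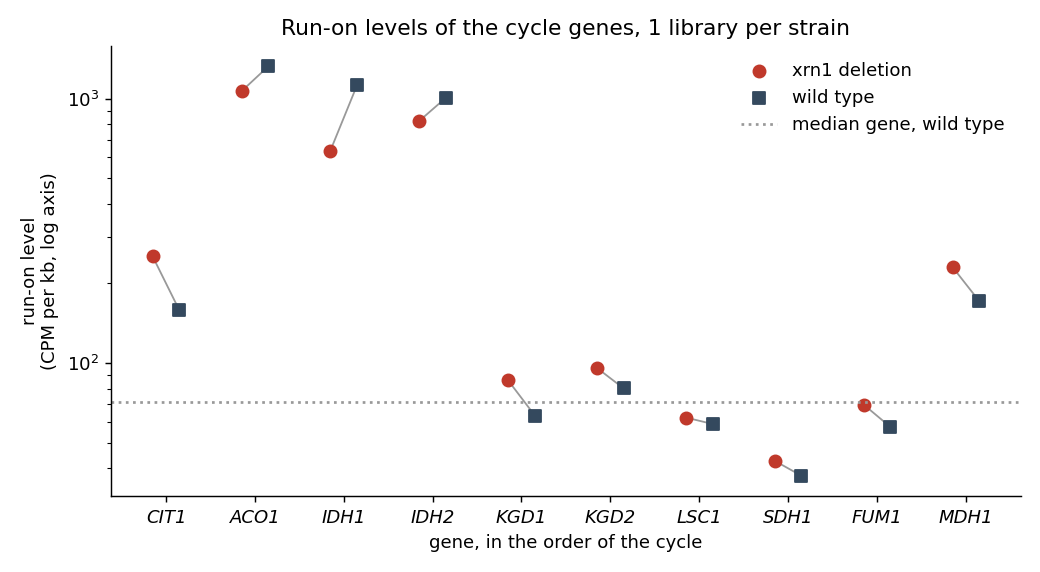
Run-on level of each cycle gene in CPM per kb of coding length (y, log axis), with genes in the order of the cycle (x). Red circles are the xrn1 deletion library and dark squares the wild type library, 1 each; the dotted line is the median gene of the wild type, 71.4. ACO1, IDH1 and IDH2 are the 3 highest in both libraries and lower in the deletion strain.

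CIT1 (YNR001C, chromosome XIV, 629622 to 631061, minus strand) encodes mitochondrial citrate synthase, which joins acetyl-CoA to oxaloacetate. It had 16226 counts in the deletion strain and 14270 in the wild type. Its level was 253 CPM per kb in the deletion strain and 158 CPM per kb in the wild type, where CPM is the count per 1000000 protein-coding counts of the same library and kb refers to coding length. All levels that follow are in this unit. The raw count was thus higher in the smaller library, and CIT1 is the only one of the 10 genes for which this was so. Its log2 ratio of 0.70 (0.66 to 0.73) placed it above 92.1% of protein-coding genes.

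ACO1 (YLR304C, chromosome XII, 735212 to 737548, minus strand) encodes aconitase, which turns citrate into isocitrate. It was the most transcribed gene of the cycle, with 111111 counts in the deletion strain and 193747 in the wild type. The level was 1067 in the deletion strain and 1325 in the wild type, and the log2 ratio was −0.29 (−0.30 to −0.28). ACO1 alone held 46.8% of the counts of the 10 genes in the deletion strain and 48.7% in the wild type.

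IDH1 (YNL037C, chromosome XIV, 557920 to 559002, minus strand) and IDH2 (YOR136W, chromosome XV, 580250 to 581359, plus strand) encode the regulatory and the catalytic subunit of the NAD-dependent isocitrate dehydrogenase, which makes 2-oxoglutarate. IDH1 had 30710 counts in the deletion strain and 76278 in the wild type, a level of 637 against 1125. Its log2 ratio of −0.80 (−0.82 to −0.78) was the 122nd lowest of the 5198 genes, with 2.33% of genes below it. IDH2 had 40743 counts in the deletion strain and 70085 in the wild type, a level of 824 against 1009, and a log2 ratio of −0.27 (−0.29 to −0.25). Both subunit genes were lower in the deletion strain, IDH1 by more than IDH2.

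ACO1, IDH1 and IDH2 are also among the most transcribed genes of the cell, and such genes had lower ratios in general. Of the genes with a known length, the 5% with the highest mean level, these 3 included (259 genes), had a median log2 ratio of −0.15 with quartiles at −0.33 and 0.05. ACO1 and IDH2 lay between these quartiles, and IDH1 lay below them. This comparison was chosen after the values were seen. With smooth trends on GC content and mean count removed, ACO1 was at −0.09, IDH2 at −0.15 and IDH1 at −0.74. The part of transcription level in the lower ratios was not tested further.

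The stretches before these 4 genes are shown because these genes stand for the first steps of the cycle, where the direction changed, and include both ends of the range. Each is read 5′ to 3′ on the gene's own strand of the R64 build (RefSeq), from 250 bases before the start codon to the 50th base of the gene. They are chrXIV:631012-631311 (minus) for CIT1, chrXII:737499-737798 (minus) for ACO1, chrXIV:558953-559252 (minus) for IDH1 and chrXV:580000-580299 (plus) for IDH2. Capitals mark CCAAT, the letters that the Hap complex binds, GTCAC, those that Rtg1 and Rtg3 bind, and AGGGG, the stress element of Msn2 and Msn4. Both strands were searched, so a match may stand as its reverse complement.
CIT1: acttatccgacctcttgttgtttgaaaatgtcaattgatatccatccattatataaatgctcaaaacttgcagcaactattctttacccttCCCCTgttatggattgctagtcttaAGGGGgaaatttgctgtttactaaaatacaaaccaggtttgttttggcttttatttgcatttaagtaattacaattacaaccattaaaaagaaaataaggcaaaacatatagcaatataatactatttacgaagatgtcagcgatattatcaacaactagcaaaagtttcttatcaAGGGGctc
ACO1: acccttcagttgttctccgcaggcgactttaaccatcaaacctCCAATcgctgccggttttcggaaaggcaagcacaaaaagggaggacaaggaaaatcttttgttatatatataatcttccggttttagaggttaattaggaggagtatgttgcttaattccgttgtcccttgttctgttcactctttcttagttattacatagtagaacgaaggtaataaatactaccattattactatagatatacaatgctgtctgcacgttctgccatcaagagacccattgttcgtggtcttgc
IDH1: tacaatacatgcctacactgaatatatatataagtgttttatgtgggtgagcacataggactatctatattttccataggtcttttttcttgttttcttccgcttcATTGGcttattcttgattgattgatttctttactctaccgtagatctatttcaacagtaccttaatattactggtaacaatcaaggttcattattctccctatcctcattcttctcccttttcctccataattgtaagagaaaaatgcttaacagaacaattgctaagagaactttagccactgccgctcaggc
IDH2: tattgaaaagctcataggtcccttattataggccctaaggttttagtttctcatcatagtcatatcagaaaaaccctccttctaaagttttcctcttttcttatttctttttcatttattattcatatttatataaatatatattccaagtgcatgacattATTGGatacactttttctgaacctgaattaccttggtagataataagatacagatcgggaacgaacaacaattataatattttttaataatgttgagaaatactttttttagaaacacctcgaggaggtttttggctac

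In these windows ACO1, IDH1 and IDH2 each held 1 CCAAT and CIT1 held none, while CIT1 held AGGGG 3 times and the other 3 genes not at all. The CCAAT match began 207 bases before the start codon of ACO1, and the reverse match began 144 bases before that of IDH1 and 89 before that of IDH2. The letters did not follow the direction of the ratios over the whole cycle, since CCAAT was also found for SDH1, FUM1 and MDH1, which were higher. Some matches lay inside the gene and not before it. These were the CCAAT of FUM1, from base 14, an AGGGG of CIT1, from base 43, and the GTCAC of LSC1, from base 44. Of all 10 cycle genes, 6 had CCAAT, against 43.3% of 6001 promoters of the same length. GTCAC was found for 3 of 10 (26.4% of promoters), namely KGD1, LSC1 and FUM1, and thus in none of the stretches printed. AGGGG was found for 4 of 10 (21.6%), namely CIT1, KGD2, LSC1 and SDH1. Over a wider window of 550 bases before the start, which was added after the values were seen, CCAAT was found for 9 of 10 genes (70.7% of promoters), GTCAC for 7 (49.2%) and AGGGG for 8 (39.2%). In that window CIT1 also held CCAAT, 293 bases before its start on the other strand, IDH2 held AGGGG 390 and 333 bases before its start, and LSC1 held no CCAAT. The letters are a description of the sequence and not evidence of binding. No motif overlapped another in the stretches printed.

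KGD1 (YIL125W, chromosome IX, 122689 to 125733) and KGD2 (YDR148C, chromosome IV, 753675 to 755066) encode the E1 and E2 components of the 2-oxoglutarate dehydrogenase complex, which makes succinyl-CoA. KGD1 had 11652 counts in the deletion strain and 12058 in the wild type, with a level of 85.9 against 63.3 and a log2 ratio of 0.46 (0.43 to 0.50). KGD2 had 5937 counts in the deletion strain and 6978 in the wild type, a level of 95.7 against 80.1 and a log2 ratio of 0.28 (0.23 to 0.33). Both were higher in the deletion strain, KGD1 by slightly more. With the trends on GC content and mean count removed KGD2 was at 0.18 and KGD1 still at 0.46. Their levels were close to that of the median gene, 73.5 in the deletion strain and 71.4 in the wild type.

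LSC1 (YOR142W, chromosome XV, 593057 to 594046), for the alpha subunit of succinyl-CoA ligase, differed least. It had 2742 counts in the deletion strain and 3642 in the wild type, a level of 62.2 against 58.8 and a log2 ratio of 0.10 (0.03 to 0.17). SDH1 (YKL148C, chromosome XI, 169207 to 171129) encodes the flavoprotein subunit of succinate dehydrogenase, which is also complex II of the respiratory chain. It had 3652 counts in the deletion strain and 4506 in the wild type, the lowest level of the cycle at 42.6 against 37.4, and a log2 ratio of 0.21 (0.15 to 0.27). Both ratios lay between the quartiles of all genes, −0.22 and 0.26. With the trends on GC content and mean count removed they were near 0, at 0.02 for LSC1 and 0.06 for SDH1.

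FUM1 (YPL262W, chromosome XVI, 47336 to 48802) encodes fumarase, which works both in mitochondria and in the cytosol. It had 4549 counts in the deletion strain and 5261 in the wild type, a level of 69.6 against 57.3 and a log2 ratio of 0.30 (0.24 to 0.36), or 0.19 with the trends on GC content and mean count removed. MDH1 (YKL085W, chromosome XI, 279123 to 280127) encodes the mitochondrial malate dehydrogenase, which regenerates oxaloacetate. It had 10328 counts in the deletion strain and 10790 in the wild type, a level of 231 against 172 and a log2 ratio of 0.45 (0.41 to 0.49). With the same trends removed MDH1 was at 0.35. MDH1 and KGD1, with 85.1% and 85.9% of genes below them, came next after CIT1 in the order of ratios.

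**Figure D2:**
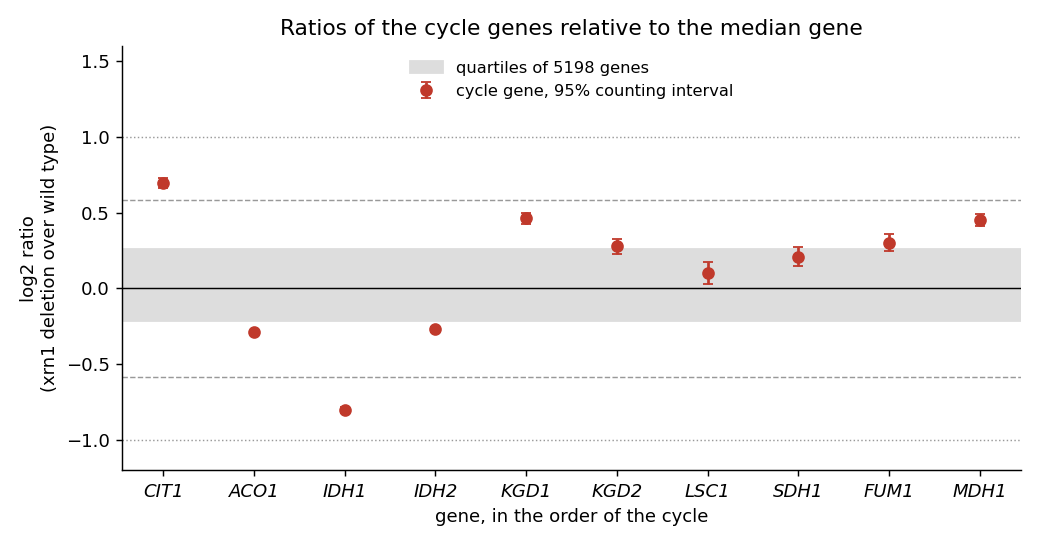
Log2 ratio of the xrn1 deletion strain over the wild type for each cycle gene (y, relative to the median gene), in the order of the cycle (x). Points carry 95% counting intervals, the grey band spans the quartiles of 5198 genes (−0.22 to 0.26), dashed lines mark 1.5-fold and dotted lines 2-fold. CIT1 and IDH1 lie beyond 1.5-fold, in opposite directions.

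Over the 10 genes the median log2 ratio was 0.24, with a range of −0.80 to 0.70. With the trends on GC content and mean count removed the median was 0.12. All protein-coding genes had a median of 0 by the scaling. The order of levels in the deletion strain was ACO1, IDH2, IDH1, CIT1, MDH1, KGD2, KGD1, FUM1, LSC1 and SDH1. In the wild type IDH1 stood above IDH2, MDH1 above CIT1 and LSC1 above FUM1, and the other places were the same. Without replicates it is not known which of these neighbours differ beyond their spread. The highest level was 25.0 times the lowest in the deletion strain and 35.4 times in the wild type. The highest and the lowest gene, ACO1 and SDH1 in both libraries, were thus closer in level in the deletion strain. Their log2 ratios were −0.29 and 0.21, or −0.09 and 0.06 with the trends on GC content and mean count removed. Whether this narrowing is particular to the cycle was not tested.

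The sum of counts ran against most of the single genes. Together the 10 genes took 0.533% of protein-coding counts in the deletion strain (95% exact binomial interval 0.531% to 0.536%) and 0.635% in the wild type (0.633% to 0.637%). ACO1, IDH1 and IDH2, grouped after their values were seen, made up 76.8% of these counts in the deletion strain (76.7% to 77.0%) and 85.5% in the wild type (85.4% to 85.6%). The summed share was therefore lower in the deletion strain while 7 of the 10 genes had ratios above 1. The other 7 genes had a median log2 ratio of 0.30, from 0.10 for LSC1 to 0.70 for CIT1.

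**Figure D3:**
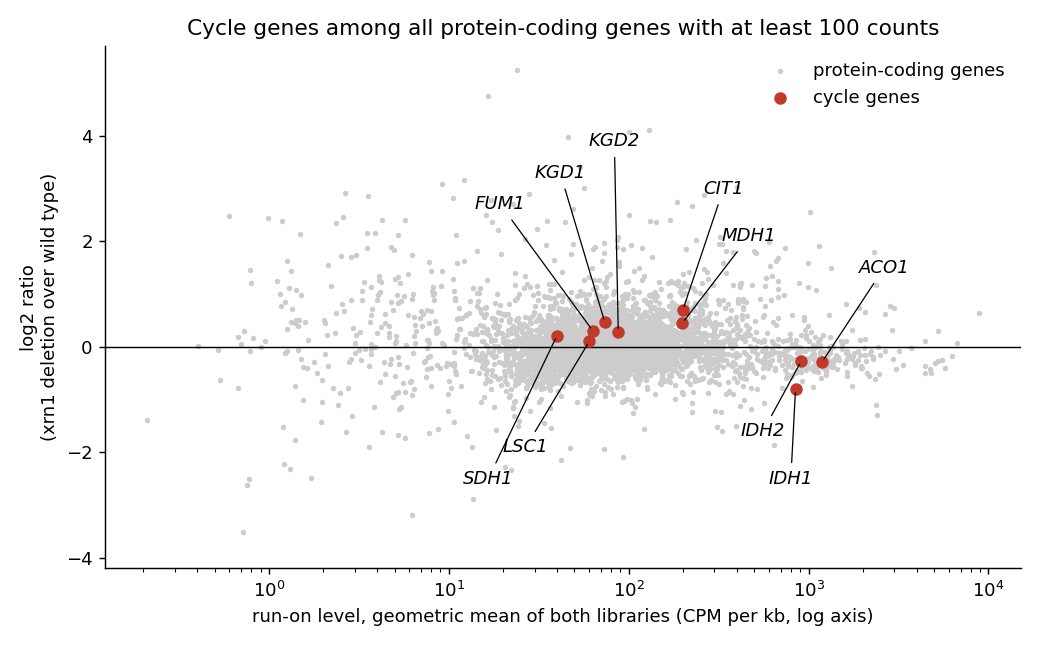
Log2 ratio of the xrn1 deletion strain over the wild type (y) against run-on level, the geometric mean of both libraries in CPM per kb (x, log axis). Grey points are protein-coding genes with at least 100 counts, a known length and counts in both libraries, red points the 10 cycle genes; XRN1, at −9.12, lies outside the axis. IDH1, IDH2 and ACO1 form the right-hand red group below 0, and the other 7 lie above 0 at lower levels.

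Genes that encode subunits of the same enzyme did not have the same ratio. The log2 ratio of IDH1 was lower than that of IDH2 by a difference of −0.53 (95% counting interval −0.56 to −0.50). It was −0.58 with the trends on GC content and mean count removed. Per kb, IDH1 was at 0.773 times the level of IDH2 in the deletion strain and at 1.12 times in the wild type. The order of these subunit genes therefore differed between the libraries. The ratio of KGD1 exceeded that of KGD2 by 0.18 (0.12 to 0.25), and per kb KGD1 was at 0.897 times the level of KGD2 in the deletion strain and at 0.790 times in the wild type. The difference was 0.28 with the trends on GC content and mean count removed. KGD2 in turn exceeded LPD1, for the dihydrolipoamide dehydrogenase shared with other complexes, by 0.33 (0.26 to 0.40), with LPD1 itself at −0.05.

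LSC1 was below LSC2, for the beta subunit of succinyl-CoA ligase, by a difference of −0.38 (−0.49 to −0.27). SDH1 was below SDH2, for the iron-sulfur subunit, by a difference of −0.46 (−0.54 to −0.38). The level of SDH2 was 4.21 times that of SDH1 in the deletion strain and 3.06 times in the wild type. The membrane anchor genes of succinate dehydrogenase were higher too, SDH3 at 0.34 and SDH4 at 1.14. SDH4 had 2375 counts in the deletion strain and 1537 in the wild type, and at 2.20-fold higher (2.07 to 2.35) it was the one subunit gene called at 2-fold. Among the 4 structural genes of that enzyme, SDH1 had the lowest ratio and SDH4 the highest. SDH1 is also the longest, with 1923 coding bases, against 801 for SDH2, 597 for SDH3 and 546 for SDH4. The difference between SDH1 and SDH2 was −0.35 with the trend on coding length removed and −0.52 with those on GC content and mean count removed. The part of length in this order was not tested.

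Before any trend was removed, the isozymes and paralogs paired with CIT1, MDH1 and SDH1 lay nearer the median gene than those cycle genes did. CIT2, for peroxisomal citrate synthase and a classic target of Rtg1 and Rtg3, had 34187 counts in the deletion strain and 45805 in the wild type and a log2 ratio of 0.09. CIT1 exceeded it by 0.61 (0.57 to 0.65), and its level was 0.456 of that of CIT2 in the deletion strain and 0.299 in the wild type. CIT3, a minor mitochondrial citrate synthase, was at 0.03, and CIT1 exceeded it by 0.66 (0.47 to 0.86). MDH2, the cytosolic malate dehydrogenase, was at −0.18 and MDH3, the peroxisomal one, at −0.03. MDH1 exceeded MDH2 by 0.63 (0.59 to 0.67) and MDH3 by 0.48 (0.40 to 0.56). With the trends on GC content and mean count removed, CIT1 exceeded CIT2 by 0.53 and CIT3 by 0.92. MDH1 then exceeded MDH2 by 0.50 and MDH3 by 0.50.

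SDH1 and its paralog YJL045W differed by 0.14 with an interval of −0.10 to 0.38, which includes 0, and by 0.27 with the trends on GC content and mean count removed. YJL045W had 261 counts in the deletion strain and 355 in the wild type. In 9 of the 10 pairs of genes compared the counting interval excluded 0, which describes these libraries and not the strains in general. At this depth 43.0% of single genes had an interval above 1 and 42.4% one below 1. The share over other pairs of genes was not computed, so the 9 are not set apart from it.

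**Figure D4:**
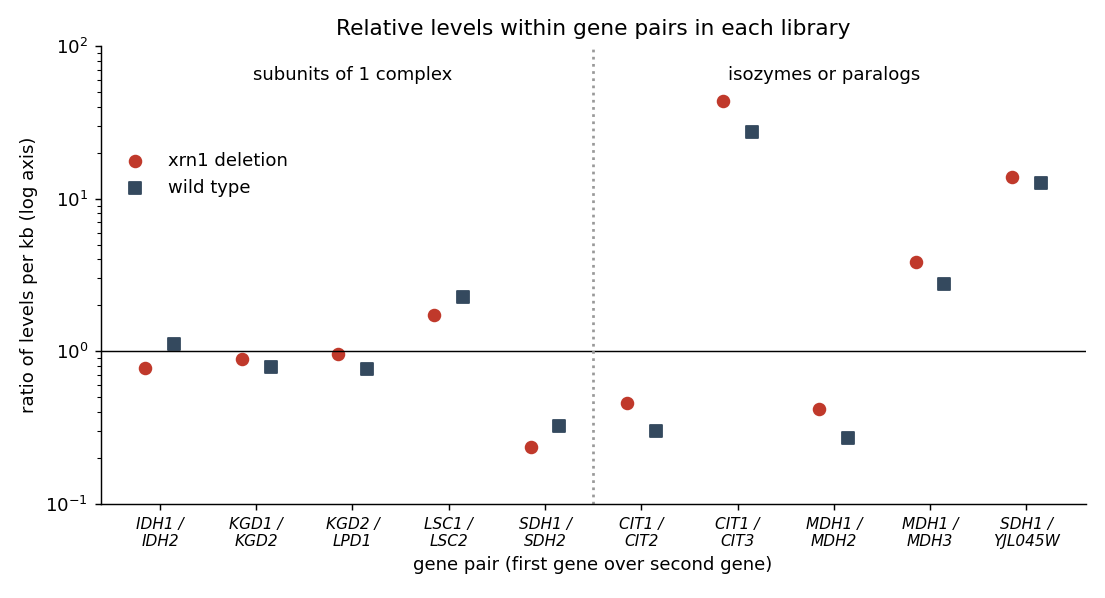
Level per kb of the first gene over that of the second (y, log axis) for 10 gene pairs (x), with the xrn1 deletion library as red circles and the wild type library as dark squares. The pairs left of the dotted line encode subunits of 1 complex and those right of it isozymes or paralogs. The IDH1 to IDH2 pair crosses 1, at 0.773 in the deletion strain and 1.12 in the wild type.

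Around the cycle, 7 lists with 49 genes in all were examined. At the 2-fold rule 4 of the 49 were called higher and 1 lower, against 4.06% and 1.52% of all genes tested. At 1.5-fold 11 were called higher and 1 lower, against 10.3% and 5.35%. Their median log2 ratio was 0.26. The 6 partner subunits had a median of 0.46, with SDH2 and SDH4 called higher at 1.5-fold. KGD4, a small subunit of the 2-oxoglutarate dehydrogenase complex, was at 0.44 and LSC2 at 0.48. The 4 assembly factors of succinate dehydrogenase had a median of 0.80. SDH5, which is needed to attach FAD to Sdh1, was 1.61-fold higher, SDH8 1.88-fold and SDH6 1.99-fold, and SDH7 was at 0.22. SDH6 rested on 368 counts in the deletion strain and 264 in the wild type. These 4 assembly genes are short, from 240 coding bases for SDH6 to 489 for SDH5, against a median of 1278 over all genes. The part of length in their ratios was not tested. None of the 8 isozymes and paralogs was called at 1.5-fold, but with these background shares few calls would be found in any list of 8. Their range was −0.18 for MDH2 to 0.29 for IDP1, the mitochondrial NADP-dependent isocitrate dehydrogenase. The 4 genes of lipoate attachment, the cofactor of the E2 components, had a median of −0.01, from LIP3 at −0.20 to LIP2 at 0.18.

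Among the 12 genes by which carbon enters the cycle the median was 0.33. At 1.5-fold 2 of the 12 were called higher and 0 lower, against 10.3% and 5.35% of all genes tested. MPC3, for the pyruvate carrier subunit used in respiring cells, had 699 counts in the deletion strain and 294 in the wild type and was 3.39-fold higher (2.95 to 3.90). MPC2, its counterpart in fermenting cells, was at −0.04. The E1 alpha gene of pyruvate dehydrogenase, PDA1, was 1.51-fold higher (1.48 to 1.55), the E1 beta gene PDB1 was at 0.38 and the E2 gene LAT1 at 0.56. Of the same complex, PDX1 was at 0.05, with an interval that includes 0, and the shared LPD1 at −0.05. The pyruvate carboxylase genes PYC1 and PYC2, which share long identical stretches, were at 0.26 and 0.33. MAE1, for mitochondrial malic enzyme, had the lowest ratio of this list at −0.04.

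The 7 carriers that move cycle acids across the inner membrane held both extremes. SFC1, the succinate-fumarate carrier gene, had 99 counts in the deletion strain and 26 in the wild type, 5.43-fold higher (3.50 to 8.71). Its level was near the floor, 2.29 in the deletion strain and 0.43 in the wild type, where only 0.06% of genes lay below it. OAC1, the oxaloacetate carrier gene, had 8159 counts in the deletion strain and 35216 in the wild type, 3.03-fold lower (2.96 to 3.10). The dicarboxylate carrier gene DIC1 was 1.56-fold higher. YHM2, the citrate and oxoglutarate carrier gene, was at −0.44, the citrate carrier gene CTP1 at −0.14, and the oxodicarboxylate carrier genes ODC2 and ODC1 at −0.07 and 0.40. The median of the list was −0.07.

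Of the regulators, HAP4 stood out. Hap4 is the activating subunit of the Hap complex and the one whose amount is set by the carbon source. HAP4 had 85499 counts in the deletion strain and 39791 in the wild type, 3.06-fold higher (3.03 to 3.10). The DNA-binding subunit gene HAP2 was 1.61-fold higher (1.52 to 1.72), HAP5 was at 0.50 and HAP3 at −0.02. The retrograde genes RTG1, RTG2 and RTG3 were at 0.24, 0.31 and 0.22, and MKS1, for a negative regulator of that pathway, at −0.01. None of these 4 was called at 1.5-fold, a rule passed by only 10.3% of all genes as higher and 5.35% as lower. Whether the ratios of the cycle genes depend on HAP4 was not tested.

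**Figure D5:**
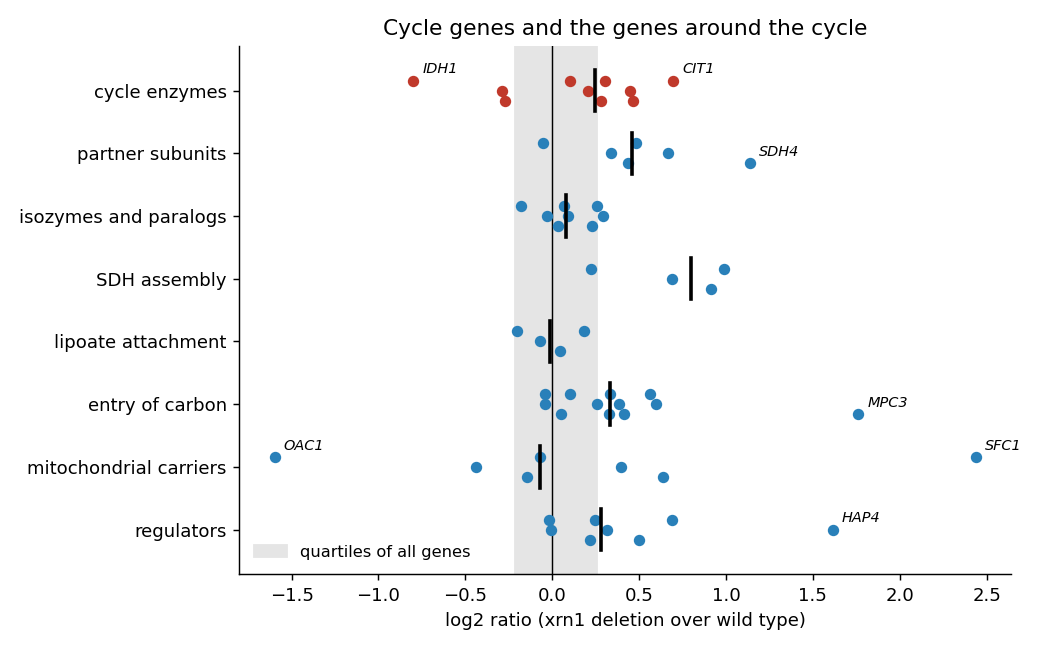
Log2 ratio of the xrn1 deletion strain over the wild type (x) for each gene (point) of the cycle (red) and of 7 lists around it (blue, rows). Black bars are list medians and the grey band spans the quartiles of all genes; genes beyond 2-fold and IDH1 and CIT1 are named. The medians run from −0.07 for the carriers to 0.80 for the assembly factors of succinate dehydrogenase.

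The 10 genes lie on 7 chromosomes and share a simple structure. Each has 1 coding exon and no intron, and 0 overlap another gene annotated in RefSeq. Of the 6448 rows counted, 5831 matched RefSeq, and overlap with the remaining rows was not checked. Of the 15502 windows of 30 bases in their coding sequences, 0 recur elsewhere in the genome, so reads of that length could be placed uniquely in all 10. Coding length ran from 990 bases for LSC1 to 3045 for KGD1. GC content ran from 39.7% for CIT1 to 45.8% for SDH1, against a median of 39.8% over all genes, and thymine, the letter at which the labelled UTP enters the transcript, made up 26.3% to 29.8%, against a median of 27.3%. The 20 nearest neighbours were taken among protein-coding RefSeq genes with at least 100 counts, and other rows were skipped. MET17, deleted in BY4741, was skipped next to ACO1, whose downstream neighbour is here HRI1, 3652 bases away. Of these 20 neighbours, 12 had a log2 ratio of the same sign as the cycle gene. This held for both neighbours of ACO1, FUM1 and MDH1 and for neither of IDH2. The share of same-sign neighbours over all genes was not computed. IDH2 starts 456 bases after BAG7 on the same strand, and BAG7 was 26.8-fold higher, with 4668 counts in the deletion strain and 248 in the wild type, whereas IDH2 was lower. ATO2, upstream of CIT1, was 2.16-fold higher, with 757 counts in the deletion strain and 500 in the wild type. NCE103, upstream of IDH1 and read in the opposite direction, was at 0.43 and GPI15, downstream, at −0.20. These 20 neighbours had a median log2 ratio of 0.12. At the 2-fold rule 2 of them, BAG7 and ATO2, were higher and 0 lower, against 4.06% and 1.52% of all genes tested.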

How the data were processed

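BioGRO-seq run-on RNA of an xrn1 deletion strain and of wild type BY4741 was sequenced, 1 library each. The authors deposited raw read counts per reading frame. TopHat2 2.1.1, Trimmomatic, FastQC, Subread and featureCounts, with R64 and sacCer3, are listed in the submitters' processing notes. Strand use and the treatment of reads with several matches are not given in the sources used here. The table lists 6448 rows, and 0 of them have a wild type count of 0.

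Gene names, positions and sequence came from RefSeq R64, and 5831 rows matched by locus tag, all on the same chromosome. Count ratios were scaled by 0.701, the median raw ratio over protein-coding rows that had 100 counts or more in all. Its 95% interval is exact conditional (Clopper-Pearson). Differences between log2 ratios have intervals from the 4 counts. No molecular identifiers are named, so intervals cover counting error only. Levels are CPM (of the protein-coding total) per kb of coding length.

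All 10 members, the genes of fixed pairs, and from each list those past 1.5-fold and the extremes were to be named. Other values of list genes, the neighbours, the sums and the order of levels were added after seeing the data. The members and lists were chosen with earlier results of these data known. A pattern over 2 libraries is 1 ratio, so no genes of like pattern are named. Alternatives were 5 scalings, among them edgeR 4.0.16 TMM factors and DESeq2 1.42.0 size factors, 5 added to each count, other count minimums, overlapping genes left out and loess trends (span 0.3) removed. One gene of the fixed lists and its pair are not reported here. The steps were tested on simulated data. Python 3.11.15, scipy 1.17.1, statsmodels 0.14.6 and R 4.3.3 were used.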

Additional observations from a re-analysis of the deposited data

How the results depend on the processing

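No paired analysis was possible because there was only 1 library of each strain, which also meant that none could be omitted. Every scaling shifted all genes alike, by −0.03 on the log2 scale at most. Under the alternatives run, all 10 genes kept the direction of their log2 ratio, and the counts of cycle genes called at 2-fold and at 1.5-fold were the same. Removing the trends on GC content and mean count moved the median over the 10 genes most, to 0.12 instead of 0.24. Removing the trend on coding length moved KGD1 more, to 0.52, and the difference between SDH1 and SDH2, to −0.35. IDH1 ranged from −0.83 to −0.74, CIT1 from 0.67 to 0.75, ACO1 from −0.32 to −0.09 and LSC1 from 0.02 to 0.11 over all settings. The cause was not tested. Mean count depends on both level and length, so differences linked to either may be removed with it. Counting error was small for all 10 genes, which had at least 6384 counts over both libraries, whereas variation between cultures was not measured.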
